A study of Drosophila melanogaster with 36 samples.

Results

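Hi-C of Piwi-KD was compared with Hi-C of the Control-KD made for it. The members of the comparison are the 2 Piwi-KD and 2 Control-KD samples that the labels place in the Piwi experiment, 4 of the 36 samples in the series and 4 of its 18 Hi-C samples. The cells were OSCs, an established line of somatic cells from the Drosophila ovary that keeps an active Piwi–piRNA pathway. They received siRNAs by nucleofection, either against piwi or against EGFP, a jellyfish-derived reporter gene, and the siRNAs were given 2 times in the 4-day Piwi-KD. The labels do not state the length of this Control-KD. For each KD the authors merged both replicates into 1 contact matrix of 40-kb bins in dm3, so the matrix is the unit here and carries no replicate spread. Of the 2977 bins on arms X, 2L, 2R, 3L and 3R, the 2948 that both matrices retain were used. Hi-C does not measure the piwi transcript or protein, so depletion was not checked in these data.

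Hi-C counts ligation products between restriction fragments that were close to each other in crosslinked nuclei. Contacts fall with distance along an arm, and contacts between arms report how whole chromosomes are placed. In many Drosophila nuclei centromeres gather at one side and telomeres point to the other, so that loci at a like distance from their centromeres meet more often across arms; this is called the Rabl arrangement. Piwi carries piRNAs to nascent transcripts of transposons and shuts the locus down, and Nxf2 works with it in the complex that does so.

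The siRNA strands against piwi are shown because they define the Piwi-KD group, with the duplex part in capitals and the overhang in lower case. The gene lies on 2L.
siPiwi-sense: GCUCCCAGGCGUGAAGGUGtt
siPiwi-antisense: CACCUUCACGCCUGGGAGCtt
The first of 80 oligos is shown for each oligo-FISH probe of the study, because the bins under these probes are followed below, with the part that matches the genome in capitals and the 19-nt adaptors in lower case. The coordinates are those of the matching part in dm3. The probe for the piRNA target, around a gypsy insertion, begins at chr2L:429791-429822, TAD-1 at chr3L:17550003-17550028 and TAD-2 at chr3L:17947436-17947461.
piRNA target: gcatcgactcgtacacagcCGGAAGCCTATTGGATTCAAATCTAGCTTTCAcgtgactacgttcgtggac
TAD-1: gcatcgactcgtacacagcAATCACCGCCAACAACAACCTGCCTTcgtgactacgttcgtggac
TAD-2: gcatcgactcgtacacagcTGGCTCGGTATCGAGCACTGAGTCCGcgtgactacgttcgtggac

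Contacts were recovered from the corrected values by dividing out the factors of the bins. The Piwi-KD matrix held 73205693 of them, with 16.1% between arms, and the Control-KD matrix held 72450303, with 16.5%. The other 3 Control-KD matrices were made for knockdowns of Nxf2, of linker histone H1 and the H3K9 methyltransferase Egg, and of heterochromatin protein HP1a. In this order, kept throughout, they held 67818267, 31120409 and 31691817 contacts, with 18.1%, 15.3% and 16.3% between arms. The HP1a series was a 2-day KD. All changes are log2 ratios of Piwi-KD over its own Control-KD after both matrices were scaled to the same total within arms, unless another control is named. The yardstick is the 6 differences among the 4 Control-KD matrices, whose sign is arbitrary, and the largest of these in size is called the largest control pair. Because no replicate spread exists, no p-value is given, and a change is called larger than the controls only if it exceeds all 6.

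Within arms, contacts were compared arm by arm in distance bands. All 5 arms had more contacts at over 10 Mb upon Piwi-KD, from 0.22 on X to 0.37 on 2R, and all 5 had fewer at 1 to 4 Mb, from -0.057 to -0.031, where the largest control pairs were 0.10. With the control of the H1 and Egg series 2L, 3L and 3R were instead higher at 1 to 4 Mb, by 0.053, 0.034 and 0.021, and 2L was higher by 0.027 with that of the Nxf2 series. The change at over 10 Mb was larger than the controls on every arm with the own control. On 2R the mean value of a bin pair over 10 Mb apart was 10.6 in Piwi-KD and 8.21 in its Control-KD. The other Control-KD matrices, in the order given above, had 8.18, 8.11 and 8.96 on 2R. Piwi-KD lay above all 4 on this arm, the largest control pair was 0.14, and with the other controls the change on 2R was 0.38, 0.39 and 0.25. On 2L the mean values were 4.97 in Piwi-KD and 4.19, 4.81, 4.50 and 4.92 in the 4 controls, starting with its own. Its own control was thus the lowest of the 4 on 2L, and the change of 0.25 became 0.048, 0.14 and 0.015 with the other controls, against a largest control pair of 0.23. On X the change was 0.22 and became 0.13, 0.18 and 0.064, against 0.16. On 3L it was 0.33 and became 0.14, 0.20 and 0.067, against 0.26. On 3R it was 0.33 and became 0.13, 0.19 and 0.066, against 0.26. The gain at over 10 Mb therefore exceeded the largest control pair with each of the 4 Control-KD matrices on 2R, with 2 of them on X, and with the own control alone on 2L, 3L and 3R.

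At the other distances, changes were small beside the controls. All 5 arms were higher at 4 to 10 Mb, from 0.042 to 0.11, and lower at 440 kb to 1 Mb, from -0.050 to -0.016, and the largest control pairs of these bands lay between 0.12 and 0.16. At 40 to 400 kb all 5 arms were higher by 0.0066 to 0.026, against 0.088 to 0.094. The direction of these 3 bands turned with some of the other controls, as over all arms at 4 to 10 Mb, where the change was 0.066 with the own control and -0.022, 0.048 and -0.063 with the others. Contacts inside a bin were lower on all arms, from -0.11 to -0.069, while the largest control pair over all arms was 0.25. With the control of the HP1a series they were higher instead on all arms, from 0.0021 on 2R to 0.047 on 3R. Over all arms the contact value at over 10 Mb was 7.96 upon Piwi-KD against 6.46, a change of 0.30 with a largest control pair of 0.21. With the other controls this change was 0.16, 0.22 and 0.089, and only 1 of these exceeded that pair. The plot of bands by arm shows the own-control value beside the others.

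**Figure D1:**
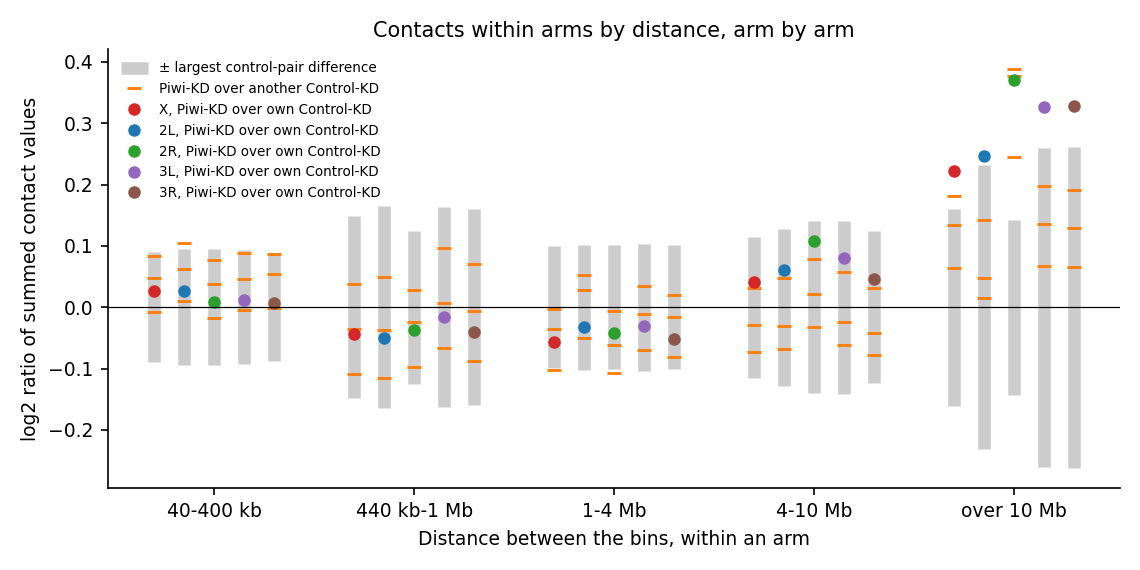
log2 ratio of summed contact values (y axis) for distance bands within arms (x axis). Dots are Piwi-KD over its own Control-KD, colored by arm, orange dashes are Piwi-KD over each other Control-KD, and grey bars reach to the largest control pair in both directions. At over 10 Mb the dots lie between 0.22 and 0.37, and on 2R all orange dashes are also above the grey bar.

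Contacts between arms were next compared. Their total was slightly lower upon Piwi-KD, with a mean value per bin pair of 3.28 against 3.36, a change of -0.038. The other controls had 3.72, 3.04 and 3.27, so that Piwi-KD lay inside the range of the controls. The change was -0.063 for the left with the right arm of a chromosome and -0.027 for arms of different chromosomes. Of the 10 pairs of arms, 9 were lower, down to -0.087 for X with 2L, and 2L with 3R was higher by 0.067. None of these was larger than the controls, which differed by up to 0.29 over all contacts between arms.

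Arms 2L and 3R shared a very strong pair of bins in all 5 matrices, 2L 9520001 to 9560000 with 3R 27800001 to 27840000. Its value was 1686 in Piwi-KD, 1667 in the own Control-KD and 1609, 1676 and 1530 in the other controls. The mean value of bins 40 to 400 kb apart in 1 arm was 889 in Piwi-KD, so this junction ranked with near neighbours of a chromosome. Its change with the own control was 0.016. Values of 2L with 3R include the contacts around it.

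The pattern of contacts between arms differed more than their total. Bins were placed by their height, the distance from the centromere-side end of their arm in dm3, and pairs of bins on different arms were sorted by the difference of their heights. Between the left and right arm of a chromosome, pairs at like height had fewer contacts upon Piwi-KD and pairs at unlike height had more. For heights within 2 Mb of each other the mean value was 6.79 in Piwi-KD and 7.67, 8.53, 7.36 and 7.96 in the controls, starting with the own, so that Piwi-KD was the lowest of the 5. For heights over 16 Mb apart it was 2.17 in Piwi-KD and 1.81, 2.00, 1.63 and 1.74 in the controls, so that Piwi-KD was the highest. The change ran from -0.18 at 0 to 2 Mb through -0.15, -0.087, 0.031 and 0.15 in the classes between to 0.26 at over 16 Mb. No single class exceeded its largest control pair, and control pairs differed in level. The change at over 16 Mb minus that at 0 to 2 Mb was 0.44, while control pairs reached 0.11. This difference was 0.45, 0.53 and 0.55 with the other controls. Chromosome 2 alone gave 0.45 and chromosome 3 alone 0.44, with largest control pairs of 0.16 and 0.097. Leaving out the 2 Mb at both ends of each arm gave 0.43, against 0.096.

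Between arms of different chromosomes the change ran the same way but less far, from -0.083 at 0 to 2 Mb to 0.082 at over 16 Mb. The difference of 0.17 was smaller than the largest control pair, 0.24, and with the other controls it was 0.29, 0.36 and 0.41. At over 16 Mb the mean values were 1.87 in Piwi-KD and 1.77, 1.82, 1.39 and 1.46 in the controls, the last 2 being those of the shallower matrices. By pairs of arms, 9 of 10 had a difference above 0. It was larger than the controls for 2L with 2R at 0.45, 3L with 3R at 0.44, 2L with 3R at 0.27 and 2R with 3R at 0.24, although for the last the largest control pair was also 0.24. Pairs with X were lower, at 0.14 with 2L, 0.18 with 2R, 0.052 with 3L and -0.040 with 3R, and none of them exceeded the controls.

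**Figure D2:**
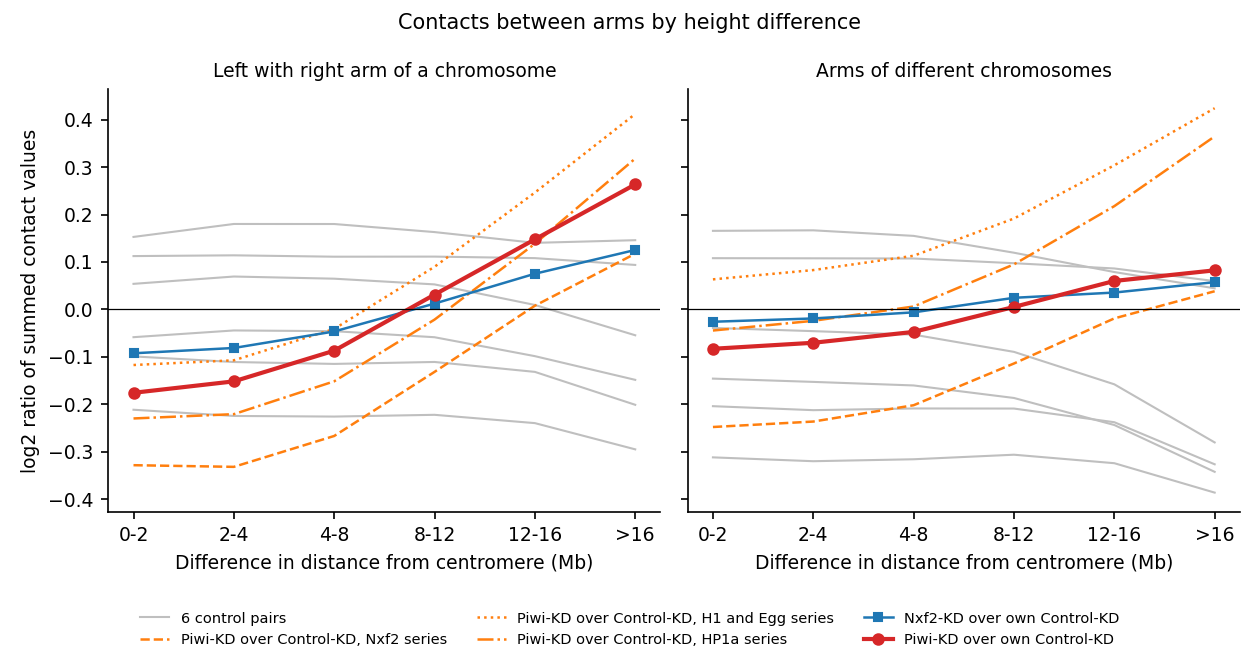
log2 ratio of summed contact values (y axis) for bin pairs on different arms, sorted by the difference in distance from the centromere in Mb (x axis), for the left with the right arm of a chromosome and for arms of different chromosomes. The red line of Piwi-KD over its own Control-KD climbs from -0.18 to 0.26 in the left panel, while the 6 grey lines of control pairs differ in level but change by at most 0.11 from the first to the last class. In the right panel Piwi-KD climbs from -0.083 to 0.082, and grey lines change by up to 0.24.

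The map of both heights shows where the change lay. Between the arms of a chromosome the highest value, 0.30, was that of the 4 Mb next to one centromere with the part over 20 Mb from it on the other arm. The lowest, -0.23, was that of heights from 16 to 20 Mb with each other. The 4 Mb next to the centromere were lower with each other by -0.13. Parts over 20 Mb from the centromere were lower with each other by -0.21, so both ends of the arms took part in the loss at like height. On different chromosomes the highest value was 0.10, in the same corner.

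**Figure D3:**
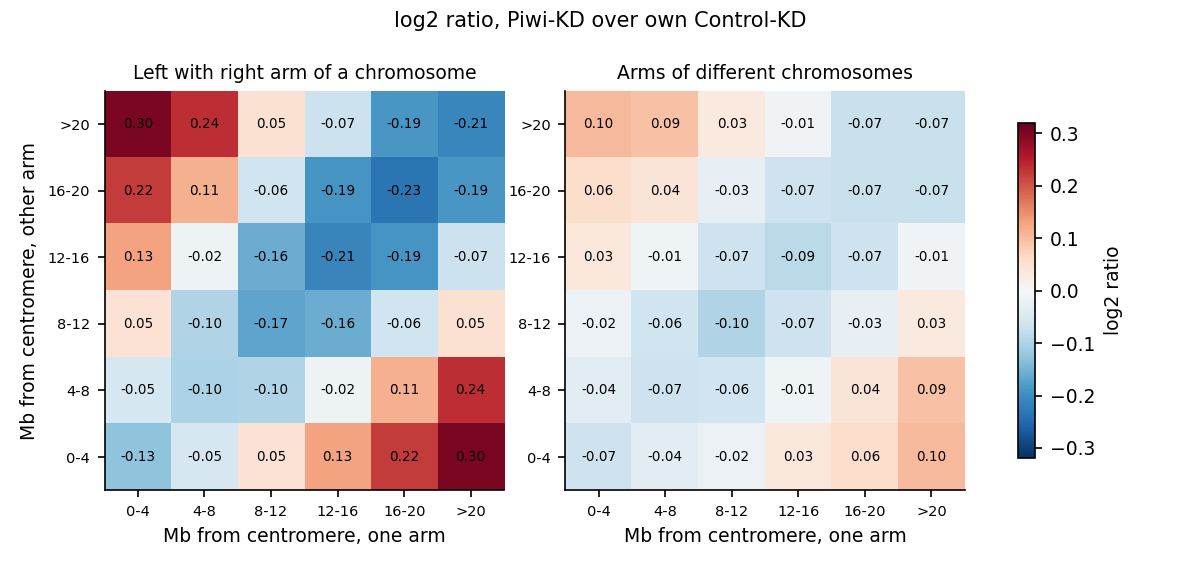
log2 ratio of Piwi-KD over its own Control-KD (color and number) by the distance from the centromere, in Mb, of the first (x axis) and the second bin (y axis) of a pair on different arms. Cells along the diagonal are negative and reach -0.23, and the corners far from it are positive and reach 0.30 for arms of one chromosome and 0.10 for different chromosomes.

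Since weak contacts are found at unlike height, the 1-Mb block pairs of different arms were also split into 5 groups by their level in the Control-KD matrices outside the comparison. Within each group the class of largest height difference was compared with that of the smallest, over 14 with 0 to 4 Mb, except that the lowest group starts at 4 to 8 Mb and the highest ends at 8 to 14 Mb. From the lowest to the highest level, the change was higher at large height difference by 0.081, 0.20, 0.16, 0.11 and 0.14, and the largest control pairs were 0.034, 0.12, 0.13, 0.10 and 0.080. Each of the 5 differences was larger than the controls. The groups hold pairs of left with right arms and pairs of different chromosomes together and were not split by these kinds. Over all levels, the height differences of these kinds were 0.44 and 0.17.

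Single blocks followed the same layout. Of 5555 block pairs of 1 Mb on different arms, 451, or 8.12%, were higher by 0.3 or more after the overall change between arms was taken off, and 10, or 0.18%, were lower by as much. Control pairs had up to 613 in one direction, so the count with the own control is inside their range, while with the other controls 665, 1173 and 1262 were higher. Of these block pairs, 366 higher and 8 lower ones differed by more than in any control pair. They were picked for the same change, so these numbers follow in part from the choice, and the share over all 5555 is not given. For the left with the right arm, the share past the limit was 0% at 0 to 2 Mb and 2 to 4 Mb, 0.342% at 4 to 8 Mb, 4.82% at 8 to 12 Mb, 18.9% at 12 to 16 Mb and 45.5% at over 16 Mb. The highest share in one direction of a control pair was 11.7% in the last class and 1.83% in the class before it. On different chromosomes the share reached 25%, where a control pair reached 46%.

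The largest gain was between 2L 20000001 to 21000000, about 2.48 Mb from its centromere, and 2R 20000001 to 21000000, 20.48 Mb from it. The mean value was 3.74 in Piwi-KD and 2.35, 2.32, 2.16 and 2.35 in the controls, starting with the own, from 2123 and 1303 recovered contacts in Piwi-KD and its control. Piwi-KD was above all 4 controls, which lay close to each other. The change was 0.70 with a counting error of 0.051. The block at 2L 22000001 to 23000000 gained 0.61 with the same part of 2R, with 2.43 in Piwi-KD and 1.63, 1.68, 1.24 and 1.37 in the controls. The next gain was that of 3L 1000001 to 2000000 with 3R 1 to 1000000, where the value was 2.56 in Piwi-KD and 1.62, 1.78, 1.72 and 1.90 in the controls, a change of 0.70. The neighbouring block 3L 1 to 1000000 gained 0.61 with the same 3R block. In both cases the telomere-side end of 3L met the centromere-side end of 3R more often. Between X 2000001 to 3000000 and 3R 1000001 to 2000000 the change was 0.63, with 1.77 against 1.18, 1.25, 0.942 and 0.987. All 5 gains joined a block centered within 2.48 Mb of a centromere with a block centered 19.92 to 24.04 Mb from one, on another arm. They were positive with each other control, the smallest being 0.25 for the 3L 1 to 1000000 pair with the HP1a series.

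Among the 5 largest losses, 3 joined 3L with 3R at like heights. They were -0.33 for 3L 6000001 to 7000000 with 3R 17000001 to 18000000, -0.32 for 3L 3000001 to 4000000 with 3R 21000001 to 22000000 and -0.31 for 3L 8000001 to 9000000 with 3R 17000001 to 18000000. The mean value of the first was 4.34 in Piwi-KD and 5.60, 6.64, 5.67 and 6.15 in the controls. The other 2 losses, both -0.33, joined X 15000001 to 16000000 with 2L 10000001 to 11000000 and with the block of 3R from 27000001 to 27920000. The 3R block holds the junction with 2L and the 2L block lies next to it. Whether the junction has a part in these losses was not tested.

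Within arms, block pairs over 1 Mb apart were compared after the change of the arm at that distance was taken off. Of 1235 pairs, 10, or 0.81%, were higher by 0.2 or more and 13, or 1.05%, were lower, and control pairs had up to 19 in one direction. The counts with the own control were inside the range of the controls, while with the other controls 42, 30 and 29 pairs were higher and 57, 39 and 30 lower, above that range. With the own control 8 higher and 10 lower ones, picked for the same change, differed by more than in any control pair. The largest gain, 0.28, was that of 2L 17000001 to 18000000 with 22000001 to 23000000, the centromere-side end of the arm. Its mean value was 17.3 in Piwi-KD and 13.9, 13.3, 12.3 and 14.2 in the controls. The same block gained 0.27 with 21000001 to 22000000, with 29.95 in Piwi-KD and 24.7, 25.95, 24.0 and 26.5 in the controls. In both, Piwi-KD was above every control. The others were 0.23 for X 4000001 to 5000000 with 18000001 to 19000000, 0.22 for 2R 1000001 to 2000000 with 10000001 to 11000000 and 0.21 for X 5000001 to 6000000 with 17000001 to 18000000. The first of these, on X, was 0.11, 0.13 and 0.090 with the other controls, none past the largest control pair of 0.14.

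The largest loss within an arm was that of 2R 1 to 1000000, at the centromere, with 2000001 to 3000000. Its mean value was 37.7 in Piwi-KD and 47.7, 48.3, 49.3 and 52.5 in the controls, a change of -0.29, and it was -0.32 upon Nxf2-KD. Piwi-KD lay below every control. On 3R, 3 of the 5 losses involved the last block, 27000001 to 27920000, with blocks at 6000001 (-0.26), 15000001 (-0.24) and 17000001 (-0.23). Mean values were 3.31 against 2.80 for the first, 8.56 against 8.43 for the second and 14.1 against 14.7 for the third, so that the first 2 were not lower before the gain with distance on this arm was taken off. The fifth was -0.24 for 2L 7000001 to 8000000 with 12000001 to 13000000, blocks on both sides of the junction with 3R.

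The 2 Mb next to the centromere are the part of each arm that lies closest to pericentromeric heterochromatin, most of which is not in the matrices. With distance taken into account, contacts inside this zone changed by 0.0026 within arms, and those with the interior of the arm by -0.010, both smaller than the largest control pairs, 0.049 and 0.027. The 2 Mb next to the telomere changed by -0.020 with each other, where control pairs reached 0.021, and by 0.020 with the centromere zone of their arm, where they reached 0.0049. The last value was -0.023 with zones of 1 Mb. Centromere and telomere zones of an arm supply nearly all pairs at its longest distances. The expected value is thus made largely from these same pairs, which holds this change and its control pairs near 0. Before distance was taken into account, their mean value was 3.82 in Piwi-KD and 2.90, 2.77, 2.72 and 2.94 in the controls. Between arms, the centromere zones met less often, with a mean value of 9.62 in Piwi-KD and 10.4, 10.7, 9.46 and 10.3 in the controls. The change was -0.11 and was 0.025 with the control of the H1 and Egg series. Telomere zones met less often too, at -0.12, with 9.57 in Piwi-KD and 10.4, 11.7, 9.99 and 10.8 in the controls, the lowest of the 5 matrices. Centromere with telomere zones of different arms met more often, with 1.84 in Piwi-KD and 1.64, 1.61, 1.21 and 1.24 in the controls. The change was 0.17 with the own control and 0.20, 0.60 and 0.57 with the others. Control pairs reached 0.17 for centromere zones, 0.23 for telomere zones and 0.43 between them, and none of the 3 changes with the own control exceeded these.

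A compartment-like pattern was read from the first principal component of each arm in the other Control-KD matrices. The contrast is the mean log2 observed over expected value of like pairs of bins, among the 20% at each extreme, less that of unlike pairs, over 1 Mb apart. It was lower upon Piwi-KD on X, 2R, 3L and 3R. On 3L it was 0.68 in the control and 0.55 upon Piwi-KD, a change of -0.13, with a largest control pair of 0.086. On 2R it was 0.79 in Control-KD and 0.67 in Piwi-KD, a change of -0.12 against 0.094. On X it was 0.78 and 0.69, a change of -0.093 against 0.090, and on 3R it was 0.70 and 0.62, a change of -0.085 against 0.10. The 3 arms X, 2R and 3L therefore exceeded the controls with the own control. Unlike pairs had more contacts, for example -0.35 against -0.43 on 3L, and like pairs fewer, at 0.52 against 0.56 at the high and -0.12 against -0.059 at the low extreme of 3L. The first component of the Piwi-KD matrix itself correlated with the reference component by 0.52 in size over 526 bins of 2R, against 0.90 for Control-KD, and by 0.89 to 0.98 on the other arms. The reference was built from Control-KD matrices alone. Whether the first component of Piwi-KD on 2R follows another pattern than compartments, as that of 2L does, was not tested. The changes on X, 2R and 3L were also larger than the controls with the Nxf2 series and the H1 and Egg series control, at -0.16 and -0.15 on X, -0.15 and -0.13 on 2R and -0.13 with both on 3L. With the control of the HP1a series they were -0.082, -0.047 and -0.045, that on 3R was 0.018 and the mean of the 4 arms -0.039, each within the largest control pair.

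On 2L the component did not follow compartments. It changed sign 3 times along the arm, against 94 to 153 times on the others, and so split 2L into large blocks. Its contrast, 1.29 in Piwi-KD and 1.215 in its control, is a different quantity and was kept apart. The change of 0.075 was smaller than the largest control pair, 0.14, and with the other controls it was 0.23, 0.15 and 0.18, each larger than that pair.

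For single bins, 3 kinds of contact were followed, those at 40 to 400 kb, those over 1 Mb away in the arm and those with other arms, each as the log2 change less the median of the arm. Of 2948 bins, 69, or 2.34%, were lower by 0.15 or more at 40 to 400 kb and 1, or 0.0339%, was higher. Over 1 Mb away, 66 bins, or 2.24%, were higher and 4, or 0.136%, lower. With other arms 65 bins, or 2.2%, were higher and 6, or 0.204%, lower. Control pairs reached 83, 131 and 173 bins in one direction for the 3 kinds. The counts with the own control were within the range of the controls. With the other controls they were 216, 120 and 125, then 241, 150 and 122, then 210, 306 and 279, all above that range except the 122. With the own control the changes themselves exceeded all 6 control pairs of the same bin in 67 of 69, 63 of 66 and 60 of 65 bins. These bins were picked for the same change, so high shares follow in part from the choice, and the share over all bins is not given.

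Bins low at short range were high elsewhere. Of the 69 bins, 37 were among those higher over 1 Mb away, 53.6% of the 69 and 56.1% of the 66. With other arms it was 23, or 33.3% of the 69 and 35.4% of the 65. Above 0 were 65 and 64 of the 69, with medians of 0.16 and 0.11. The correction by ICE gives each bin the same total, so a loss in one kind of contact is tied to a gain in another. In contacts recovered before that correction, the 69 bins had a median total higher by 0.10 in Piwi-KD, and the numbers past the limit were 16 lower at 40 to 400 kb, 173 higher over 1 Mb away and 176 higher with other arms. Without the correction, fewer bins passed the limit for the loss at short range and more for the gains.

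The share of changed bins was higher at the ends of arms, which was not compared with the control pairs. Over 1 Mb away, 5.79% of bins in the centromere zone, 6.02% in the telomere zone and 1.51% in the interior were past the limit for a gain. With other arms these were 5.37%, 4.42% and 1.67%, and for losses at 40 to 400 kb 3.31%, 5.62% and 1.91%. By arm, gains with other arms ran from 1.14% on 2R to 3.8% on X, and gains over 1 Mb away from 0.863% on 3R to 3.8% on 2R. The 65 bins that gained with other arms formed 37 runs of neighbours and the 66 that gained over 1 Mb away formed 34. The longest run of bins gaining with other arms was 8 bins, X 40001 to 360000, at the telomere-side end of X. The longest run gaining over 1 Mb away was 7 bins, 2R 20040001 to 20320000, and the longest run of short-range losses was 6 bins, 3L 17720001 to 17960000, which ends with the bin of the TAD-2 probe.

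Bins with the largest changes at 40 to 400 kb differed in their other contacts. X 200001 to 240000, at -0.31, had 0.17 over 1 Mb away and 0.24 with other arms, and 2R 11080001 to 11120000, at -0.32, had 0.16 and -0.0053. X 21480001 to 21520000, at -0.36, was low in all 3 kinds, with -0.23 and -0.18, but its short-range change was -0.049, -0.033 and -0.084 with the other controls. The single bin higher at short range, 2R 1 to 40000, had 0.16, with a control pair of 0.16 there.

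The largest gain over 1 Mb away, 0.32, was that of 2R 20200001 to 20240000, from 6886 recovered contacts in Piwi-KD and 5030 in Control-KD. Next were 2L 17040001 to 17080000 with 0.32, from 11726 and 8965 contacts, and its neighbour 2L 17080001 to 17120000 with 0.29, from 17629 and 12470 contacts. These 3 changes lay between 0.32 and 0.42 with the other controls, above control pairs of 0.13 and less, and upon Nxf2-KD they were 0.20, 0.15 and 0.16. The 2 bins on 2L lie in the block that gained most with the centromere-side end of that arm. The 3 bins gaining most with other arms lay within 320 kb of each other on 3L. They were the bin of the TAD-2 probe, 3L 17920001 to 17960000, with 0.31, 3L 18160001 to 18200000 with 0.31 and 3L 17880001 to 17920000 with 0.27. The single loss over 1 Mb away that exceeded the controls was -0.16 at X 3920001 to 3960000, where a control pair reached 0.15, and with the other controls it was -0.093, -0.0084 and -0.093, none past that pair. The 2 losses with other arms that exceeded the controls were both on X, -0.16 at 17400001 to 17440000 and -0.15 at 12760001 to 12800000.

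**Figure D4:**
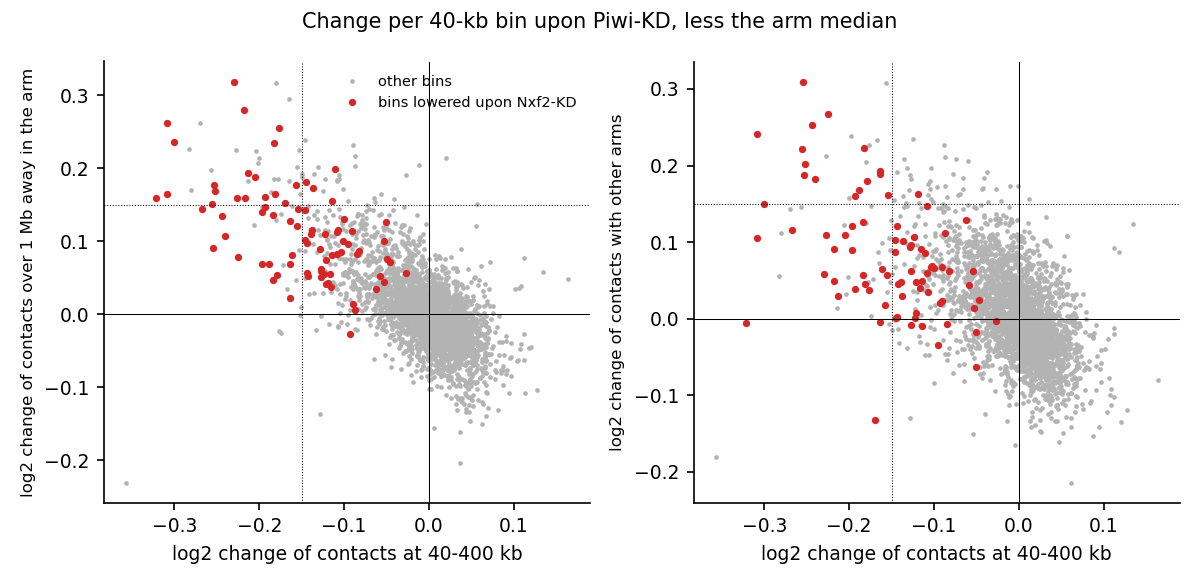
log2 change of contacts over 1 Mb away in the arm (y axis, left) and with other arms (y axis, right) against that at 40 to 400 kb (x axis) upon Piwi-KD, less the arm median, for 2948 bins. Dotted lines mark changes of 0.15, and red points are the 81 bins chosen for their loss at 40 to 400 kb upon Nxf2-KD, of which 81 lie left of 0 and 80 and 71 lie above 0.

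The bin of the TAD-2 probe made 13604 recovered contacts with other arms upon Piwi-KD, against 10214 in its control. Its corrected summed value with other arms was 8191 in Piwi-KD and 6894, 7819, 6264 and 6760 in the controls, so that Piwi-KD was above all 4. Before the arm median was taken off, the change was 0.25, smaller than the largest control pair of 0.32. With the other controls it was then 0.068, 0.39 and 0.27. After the arm median was taken off, the change of 0.31 was 0.30, 0.31 and 0.29 with the other controls, and control pairs differed there by at most 0.018. Upon Nxf2-KD it was 0.22. The gain was spread over all partners, with 0.28 for X, 0.29 for 2L, 0.25 for 2R and 0.30 for 3R. The largest control pairs of these partners, in the same order, were 0.14, 0.16, 0.046 and 0.12. Values by partner have another baseline than the 0.31, which lies above all 4, and are not parts of it. The gain was larger with the telomere zones of the other arms, 0.61, than with their interior, 0.28, and their centromere zones, 0.22. A control pair reached 0.22 for both the telomere and the centromere zones. With the other controls telomere zones had 0.48, 0.71 and 0.61, and centromere zones 0.26, 0.081 and 0.041. Upon Nxf2-KD the order was the other way, with 0.15 for telomere zones, 0.18 for the interior and 0.32 for centromere zones. The total of recovered contacts of this bin was higher by 0.16.

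Around this probe the gain covered a stretch of the arm. From 3L 17720001 to 18280000, 14 of 14 bins were above 0 with other arms, 10 of them past the limit, and 13 were below 0 at 40 to 400 kb, 7 of them past the limit. The stretch was chosen after its values had been seen. A second maximum, 240 kb from the probe bin on the centromere side, had 0.31 with other arms and -0.16 at short range. Over 1 Mb away in the arm these bins changed less, with 0.091 in the probe bin. The bin of the TAD-1 probe, 400 kb away, had 0.066 with other arms and 0.053 at 40 to 400 kb, and its total changed by -0.0012.

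**Figure D5:**
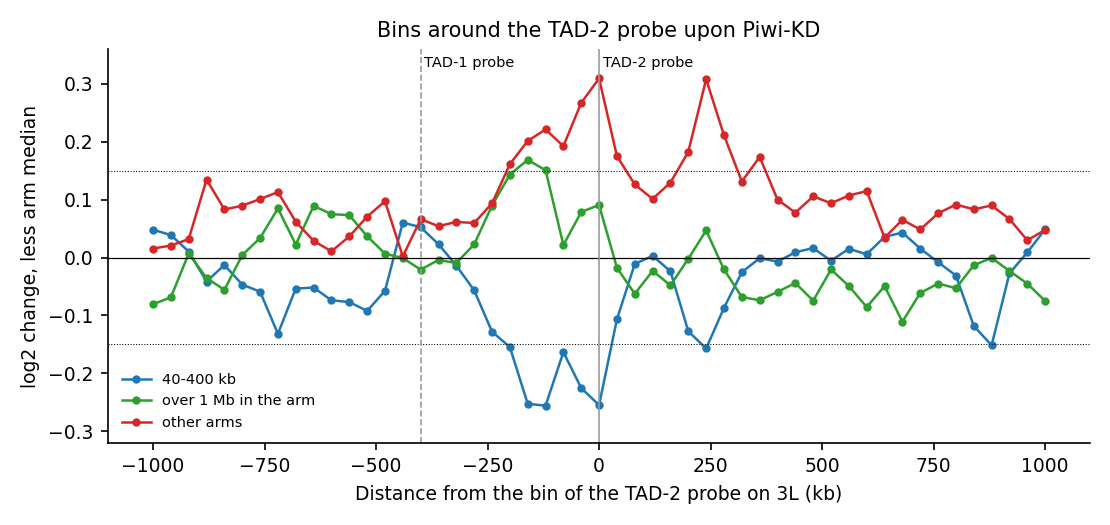
log2 change upon Piwi-KD less the arm median (y axis) of single bins against the distance in kb from the bin of the TAD-2 probe on 3L (x axis), for contacts at 40 to 400 kb, over 1 Mb in the arm and with other arms. The line for other arms peaks at 0.31 in the probe bin and again 240 kb to its right, where short-range contacts are at -0.25 and -0.16, and the TAD-1 bin 400 kb to the left shows 0.066 and 0.053.

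The bin of the piRNA target probe, 2L 400001 to 440000, gained at long range within its arm. Its summed value over 4 Mb away was 6999 in Piwi-KD and 5913, 5915, 5759 and 6278 in the controls, so that Piwi-KD was above all 4. The change was 0.24 with the own control and 0.24, 0.28 and 0.16 with the others, against a largest control pair of 0.13, and it was 0.29 upon Nxf2-KD. It rests on 11236 recovered contacts in Piwi-KD and 8174 in the control. The change of the whole arm was not taken off. All of 2L changed by 0.060 at 4 to 10 Mb and by 0.25 at over 10 Mb. With the other controls 2L changed by -0.031, 0.047 and -0.068 at 4 to 10 Mb and by 0.048, 0.14 and 0.015 at over 10 Mb. How much of the gain of the bin is that of its arm was not tested. With other arms the value of the bin was 13880 in Piwi-KD and 13040, 14520, 12790 and 13640 in the controls, inside their range. The total of recovered contacts of the bin was higher by 0.22. At 40 to 400 kb the bin changed by -0.16, against a largest control pair of 0.095, and by -0.072, -0.17 and -0.10 with the other controls. On recovered contacts, before ICE, this short-range change was 0.066. For the TAD-2 bin the value over 4 Mb away was 6970, against 5949, 6536, 6000 and 6403, a change of 0.23 with a largest control pair of 0.14, which with the other controls was 0.093, 0.22 and 0.12, so that 1 of these 3 exceeded that pair. For the TAD-1 bin it was 8074, against 7461, 8113, 7731 and 8016, so that 1 control was higher. The arm of both TAD bins, 3L, changed by 0.080 at 4 to 10 Mb and by 0.33 at over 10 Mb with the own control. This was not taken off either.

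Bins chosen without the Piwi-KD matrices gave a separate view. In Nxf2-KD with its own Control-KD, 82 bins were lower by 0.15 or more at 40 to 400 kb, and 81 of these were kept in both matrices here. Upon Piwi-KD, 81 of the 81 bins were below 0 at 40 to 400 kb, with a median of -0.14, and 37, or 45.7%, passed the limit that 2.34% of all bins passed. Over 1 Mb away, 80 were above 0, with a median of 0.11 and 28.4% past the limit. With other arms, 71 were above 0, with a median of 0.067 and 19.8% past the limit. The medians of the same bins in control pairs were at most 0.048, 0.042 and 0.031, and the medians of all bins were 0. With the other controls, the Piwi-KD medians were -0.18 to -0.19, 0.14 and 0.089 to 0.099. The control of the Nxf2 series was used to choose these bins. Medians with it, and those of control pairs that include it, thus follow in part from the choice. The total of recovered contacts of the chosen bins was higher by a median of 0.064. The tie between losses and gains through ICE holds for them too. Their median at 40 to 400 kb on recovered contacts is not given. The piRNA target bin, which is among the 81, changed by 0.066 at that range on recovered contacts.

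Contacts of these bins with each other on different arms changed by 0.19, and the changes of each bin with all other arms would give 0.16. The difference of 0.031 was smaller than the largest control pair, 0.040.

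Across the whole map, the changes of Piwi-KD and Nxf2-KD, which share no matrix when each is set against its own control, varied together. Pearson's r was 0.74 over 5555 block pairs between arms, 0.63 over 1235 block pairs within arms, and 0.76, 0.62 and 0.62 over 2947 bins for contacts at 40 to 400 kb, over 1 Mb away and with other arms. Neighbouring bins and blocks share contacts and each matrix has equal bin totals, so these points are not independent, and the values are a description. The height difference of left with right arms was 0.22 upon Nxf2-KD and 0.44 upon Piwi-KD. At over 10 Mb, Nxf2-KD had 0.26 on 2R and 0.20 on X, and 0.021 on 2L.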

How the data were processed

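Hi-C used HindIII. Per the labels and the methods of the study, the authors mapped reads to dm3, built matrices with HiCExplorer v3.3, summed 2 replicates per KD, filtered bins by coverage, applied ICE and normalized the matrices of a comparison. The values the authors deposited are thus a signal per pair of bins after correction, not counts. Values of 6 matrices were used. Dividing each value by its bin factors gave contacts, and 100% of those under 50 were whole to within 0.01. Depth was 31120409 to 73205693 contacts, and counting errors cover counting alone.

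Matrices were scaled to equal totals within arms. The named regions are the FISH probe bins, the 5 block pairs with the largest gain and the 5 with the largest loss, and up to 3 bins in each direction per contact type, among those past the limit and larger than all 6 control pairs. Block pairs were kept with at least 400 bin pairs. Samples, measures and named rules were chosen with earlier results of these data known. Height differences, block pairs between arms, the junction, partners, runs, coverage and contacts of the Nxf2-chosen bins with each other were added after seeing the data. Scripts were tested on simulated data. DamID-seq, ChIP-seq and other knockdowns were not analysed here. Scripts ran in Python 3.11.15 with pandas 2.3.3, NumPy 2.4.6, matplotlib 3.10.9 and SciPy 1.17.1.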

Additional observations from a re-analysis of the deposited data

How the results depend on the processing

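No paired analysis was possible because the replicates of each KD were merged before deposition. No replicate could be left out for the same reason. Of 989 values of 172 results under alternative settings, 757 moved by less than the control-pair spread or by less than 1.5 times a count, 230 moved further and 2 reversed, which here means that a change larger than all control pairs took the other sign. Counting also changes that were not larger than the control pairs, 156 values had the other sign, among them all contacts between arms, 0.11 and 0.0030 with the H1 and Egg and the HP1a series controls. Of those that moved, 170 belong to single arms, pairs or classes and the others are given below. The causes of the moves were not tested. Reversed were the piRNA target bin at 40 to 400 kb, 0.066 on recovered contacts, and the centromere with telomere zone within arms, -0.023 with zones of 1 Mb.

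Controls of the Nxf2, the H1 and Egg and the HP1a series are given in this order. Contacts over 10 Mb over all arms were 0.16 and 0.089 with the first and the last. Centromere zones between arms were 0.025 with the second, and centromere with telomere zones 0.60 and 0.57 with the second and the last. The height difference was 0.53 and 0.55 with these controls, 0.36 with classes of 0 to 4 and over 12 Mb, and 0.53 with heights as a share of the arm. The compartment-like mean was -0.039 with the last. TAD-1 with TAD-2 was -0.21 with the own control, from 394 and 405 recovered contacts, and -0.30, -0.49 and -0.38 with the others, against a largest control pair of 0.28. The piRNA target bin with other arms was -0.065 with the first and 0.28 on recovered contacts.

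Block pairs within arms that gained numbered 42, 30 and 29, and those that lost 57, 39 and 30. They were 38 and 42 with a limit of 0.15, 0 and 1 with 0.3, and 143 and 179 in 500-kb blocks. Block pairs between arms that lost were 98, 166 and 178, and 22 on recovered contacts. Those that gained were 1173 and 1262 with the second and the last.

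Bins lower at 40 to 400 kb were 216, 120 and 125, and 16 on recovered contacts. Bins higher over 1 Mb away were 241, 150 and 122, and 173 on recovered contacts. Bins higher with other arms were 210, 306 and 279, and 176 on recovered contacts. With a limit of 0.1 these 3 counts were 173, 186 and 214, and with 0.2 they were 29, 23 and 19. Nxf2-chosen bins over 1 Mb away had medians of 0.14, 0.14 and 0.14, with 0.16 on recovered contacts and 0.15 with bins chosen at 0.2. With other arms they had 0.089, 0.099 and 0.098, with 0.13 and 0.094. The control of the Nxf2 series was also used to choose these bins.

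Depth limits the H1 and Egg and HP1a series controls most. The limits of 0.15, 0.2 and 0.3 are settings. In the main comparison, counts over all bins or block pairs were set beside those of control pairs. The shares by zone and arm, the shares of the Nxf2-chosen bins and the counts around the TAD-2 probe were not.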
